A study of Mus musculus with 30 samples.

Results

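Follicular B cells are the most common resting B cells of the spleen. Here they are the 1799 cells selected on their own UMI counts, of 53644 deposited cell barcodes in 4 single-cell RNA libraries, that carried UMIs of Fcer2a (CD23) and Ighd (the IgD heavy chain) and lacked those of marginal zone, transitional, recently activated, plasma, T and dividing cells. A UMI, a unique molecular identifier, is counted once per captured RNA molecule. A cell needed at least 200 detected genes, at most 10% mitochondrial UMIs, 3 UMIs of Cd79a, Cd79b and Ms4a1 together, 2 of Fcer2a and 2 of Ighd. Myof, S1pr3, Klhl14, Agbl1, Akap12, Egr3, Jchain, Mki67 and Top2a had to be at 0, and the 3 Cd3 genes together at no more than 1. Of the 46886 cells past the filters on genes and mitochondrial UMIs, 26777 carried the B cell genes, and 348, 574, 356 and 521 follicular cells came from Smc3-WT replicate 1, Smc3-WT replicate 2, Smc3-cKO replicate 1 and Smc3-cKO replicate 2. Values for 4 libraries are given in that order throughout.

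The study concerns cohesin, whose subunit is encoded by Smc3, in mouse dendritic cells, and its single-cell part covers whole spleen suspensions from which red blood cells were removed. Both genotypes are mice, named Smc3-WT and Smc3-cKO, with 2 libraries each. The labels name neither the Cre line, the deleted part of Smc3, nor the strain, and give an age of 6 to 8 weeks for the mice whose dendritic cells and their precursors were sorted. Whether the 2 libraries of each genotype are from different mice is not said either, so p-values between genotypes measure the spread between these libraries only.

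Follicular B cells recirculate through blood and lymphoid follicles, which they enter with the help of chemokine receptors, and they present antigen to helper T cells on MHC class II. Marginal zone B cells stay at the border of the splenic white pulp, carry high CD21 (Cr2) and CD1d, and respond early to blood-borne antigens. Transitional B cells, marked by CD93, are recent arrivals from the bone marrow from which both types develop.

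The label was checked on 2 markers the selection did not use, Bank1, an adaptor of B cell receptor signalling, and Cd55, a complement regulator. After thinning every cell to 1500 UMIs, Bank1 was detected in 99.7%, 99.6%, 98.0% and 98.6% of the follicular cells, against 13.5%, 2.90%, 4.07% and 3.35% of T cells, in which a B cell gene measures free RNA. Cd55 was detected in 71.3%, 67.1%, 61.8% and 63.5% of them, against 16.9%, 11.5%, 10.02% and 6.74% of T cells. Without thinning, Cd55 was in 85.6%, 84.8%, 86.8% and 81.8% of the follicular cells, and Bank1 in 99.4% to 100% of them. Both markers stood far above their T cell shares in each library. For Bank1 this shows B cells, and it does not by itself part follicular from other B cells. Whether Cd55 in T cells was free RNA was not tested. The T cells were chosen without UMIs of Cd79a, Cd79b and Ms4a1, so their shares may understate free RNA. Bank1 was at 5621 to 6568 CPM in follicular, 3975 to 5380 CPM in marginal zone-like and 3433 to 5143 CPM in Cd93+ cells, so its ranges lay close together. Cd93 had a UMI in 0.287%, 0.351%, 1.69% and 1.78% of the thinned follicular cells, against 0.519%, 0.259%, 0.313% and 0.139% of T cells.

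The 2 markers that the rule did use are given as a description. Fcer2a was at 822 and 906 CPM (UMIs per 1000000 UMIs of the library's follicular cells) in the Smc3-WT and 746 and 889.5 CPM in the Smc3-cKO libraries, and Ighd at 1096 and 1322 and at 1442 and 1556 CPM. Cells just outside the limit, with 1 Fcer2a UMI and otherwise eligible, numbered 1733 and had Bank1 at 5949 and Cd55 at 874 CPM. The 942 cells just inside, with 2 Fcer2a UMIs, had Bank1 at 6120 and Cd55 at 827 CPM. The 294 cells with 1 Ighd UMI had Bank1 at 5998 and Cd55 at 752 CPM, and the 379 with 2 had 5963 and 834 CPM. At the Ighd limit the marginal zone markers were higher just outside than just inside: Cr2 was at 988 against 773 CPM, Cd9 at 25.4 against 12.7 CPM and Cd1d1 at 13.99 against 6.36 CPM. At the Fcer2a limit Cr2 was at 765 against 716 CPM and Cd9 at 14.9 against 11.4 CPM.

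The exclusions removed most of the cells that passed both positive markers. Fcer2a and Ighd together were met by 1200, 1538, 1181 and 1336 B cells, of which 29.0%, 37.3%, 30.1% and 39.0% were kept. Klhl14, listed here among transitional markers, took out 34.5%, 32.9%, 36.0% and 28.2% of them, more than any other single gene. Jchain took out 9.42%, 6.31%, 13.7% and 7.71%, while 8.46%, 7.33%, 14.6% and 6.61% of T cells also held a Jchain UMI, a like share in each library. With those cells kept, as an alternative chosen after seeing the data, 740 genes were higher and 768 lower than in marginal zone-like cells, close to the counts given for that comparison.

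Libraries held 40367056 to 51299056 UMIs, and the follicular cells 1196999, 1794173, 1601047 and 1575020, of which the genes past the filter on low counts between genotypes held 1181769, 1778649, 1584500 and 1561469. The median follicular cell had 2957, 2777.5, 4254.5 and 2608 UMIs, so Smc3-cKO replicate 1 was the deepest. Free RNA, read from Igkc in T cells, was highest in Smc3-WT replicate 1 and next in Smc3-cKO replicate 1. An Igkc UMI was held by 64.4%, 23.1%, 45.3% and 19.0% of T cells. All 6 erythroid markers were detected, and their summed level in the follicular cells was 6235, 71.3, 1523 and 25.4 CPM. The 12 T cell markers summed to 276, 73.6, 70.6 and 97.1 CPM and the 6 NK markers to 173, 39.6, 26.9 and 24.8 CPM, all detected. The 12 myeloid markers, all detected, summed to 551, 376, 1234 and 458 CPM, and the 10 dendritic cell markers, all detected, to 111, 75.8, 49.3 and 93.3 CPM. A single follicular cell of Smc3-cKO replicate 1 held 1251 UMIs of the myeloid and dendritic markers, and 85 of the 1799 held 5 or more. Scrublet marked 4, 13, 7 and 29 of the follicular cells as doublets. They were kept, and leaving them out was an alternative. Any 2 libraries shared 36 to 61 barcodes, 0.382% to 0.432% of the smaller library, of which at most 1 was a follicular cell in both.

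**Figure D1:**
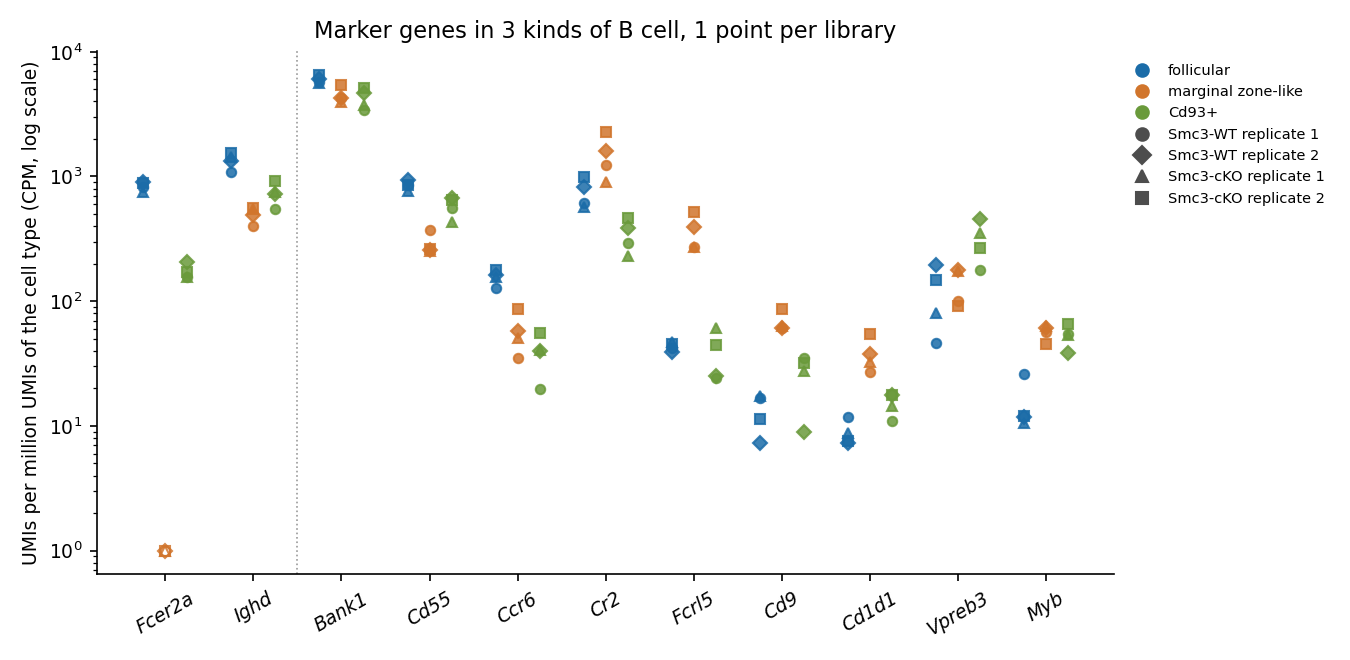
Level of 11 marker genes (CPM, log axis) in follicular (blue), marginal zone-like (orange) and Cd93+ (green) B cells, 1 point per library with the shape naming the library. The 2 genes left of the dotted line chose the follicular cells, and the open points mark 0 UMIs, which the marginal zone-like rule required of Fcer2a. Cd55 and Ccr6 are higher in follicular cells and Fcrl5, Cd9 and Cd1d1 lower than in marginal zone-like cells in all 4 libraries.

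Follicular cells were first compared with the B cells most like them. Marginal zone-like B cells (1507 cells: 312, 440, 217 and 538) had Myof or S1pr3 UMIs and none of Fcer2a, and their median depth was 3536, 3863, 5040 and 4130.5 UMIs. The question is which genes set the 2 mature types apart within a library. Of 9360 genes tested with edgeR on sums per library and type, with the library as a block and an adjusted p under 0.05, 662 (7.07%) were higher and 809 (8.64%) lower in follicular cells, 15.7% in all. Genes used by either rule were left out of the test. Without Smc3-WT replicate 2 the counts were 373 and 478, and without the library block 218 and 316.

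A complement regulator and a chemokine receptor were among the genes most raised in follicular cells. Cd55 (chr1:130429798-130465009) was at 862 and 938 CPM in the Smc3-WT and 763 and 855 CPM in the Smc3-cKO follicular cells, against 369.8 and 258 and 254 and 263 CPM in the marginal zone-like cells of the same libraries (edgeR, log2 change 1.60, SE 0.09, adjusted p = 9.10e-10). Ccr6, a chemokine receptor for CCL20 (chr17:8236041-8258519), was at 129 and 162 and 156 and 178 CPM against 34.8 and 58.2 and 50.9 and 86.4 CPM (edgeR, log2 change 1.43, SE 0.12, adjusted p = 8.22e-08). The types did not overlap for either gene.

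Of 17 tested homing, egress and adhesion genes, 8 were higher and 3 lower, with a median log2 change of 0.24 against -0.02 over all genes. Among the higher ones beside Ccr6, the oxysterol receptor Gpr183, which guides B cells within follicles, rose by 1.28 and the integrin Itgb7 by 1.30 on the log2 scale. S1pr4 (0.68), Ccr7 (0.52), Cxcr4 (0.52) and Itga4 (0.24) were higher by smaller log2 changes. The egress receptor S1pr1 was at 129 and 171 and 138 and 172 CPM in follicular and 184 and 332 and 233 and 394 CPM in marginal zone-like cells, lower in all 4 libraries (edgeR, log2 change -0.88, SE 0.10, adjusted p = 2.47e-06). Itgb1 (log2 change -1.12) and Cd44 (-0.34) were lower as well. Cxcr5, the receptor for the follicle chemokine CXCL13, was at 215 and 182 and 243 and 126 CPM in follicular and 201 and 137 and 220.4 and 140.04 CPM in marginal zone-like cells, and did not pass (edgeR, log2 change 0.13, SE 0.09, adjusted p = 0.382).

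The MHC class II presentation genes were higher nearly as a block: 10 of 13 rose and 1 fell, with a median log2 change of 0.63. The antigen-presenting chain H2-Aa (chr17:34282744-34287823) was at 1198 and 1899 CPM in follicular cells of the Smc3-WT libraries and 1467 and 1793 CPM in those of the Smc3-cKO libraries. Marginal zone-like cells of the same libraries had 666 and 1262 and 835 and 1174 CPM. The 2 types overlapped across libraries, but within each library the follicular level was higher (edgeR, log2 change 0.72, SE 0.07, adjusted p = 1.31e-06). Ciita, the transactivator of class II genes (chr16:10480014-10531064), was at 407 and 360.1 and 425 and 331 CPM against 203 and 202 and 217 and 162 CPM, with no overlap (edgeR, log2 change 0.96, SE 0.07, adjusted p = 4.00e-08). H2-Ab1 rose by 0.63, H2-Eb1 by 0.58 and the invariant chain Cd74 by 0.45 on the log2 scale. The peptide-exchange subunits H2-DMa (0.63), H2-DMb1 (0.87) and H2-DMb2 (0.64), and their B cell inhibitor's subunits H2-Oa (0.54) and H2-Ob (0.95), rose too. H2-DMb1 and H2-DMb2 are similar in sequence, and reads could be split between them. The 3 lysosomal enzymes did not follow: Lgmn fell by 0.72, and Ctss (edgeR, log2 change 0.19, SE 0.07, adjusted p = 0.0898) and Ifi30 (edgeR, log2 change -0.30, SE 0.10, adjusted p = 0.0525) did not pass. The list's counts were 10 and 1 without Smc3-WT replicate 1 and 11 and 1 with cells thinned to 1500 UMIs, but 4 and 1 without the library block.

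Class II promoters are known for an X box and a Y box to which the factors that recruit CIITA bind. Both strands were searched for 2 short cores, ACNGATG for the X box and GATTGG for the Y box. Of the rising genes whose promoters were searched, the 4 promoters below held both cores on the gene's own strand. Each is 250 bases before to 50 bases after the gene's start in RefSeq's GRCm38.p6 (the build of mm10), read 5′ to 3′ along the gene, with the matches in capitals.

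H2-Eb1 (chr17:34305617-34305916, + strand): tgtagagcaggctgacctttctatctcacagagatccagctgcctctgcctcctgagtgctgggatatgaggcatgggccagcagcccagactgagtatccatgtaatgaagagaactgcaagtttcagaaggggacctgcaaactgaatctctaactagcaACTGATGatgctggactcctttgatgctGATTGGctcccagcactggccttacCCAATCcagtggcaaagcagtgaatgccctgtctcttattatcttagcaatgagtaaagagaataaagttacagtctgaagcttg

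H2-DMb1 (chr17:34152941-34153240, + strand): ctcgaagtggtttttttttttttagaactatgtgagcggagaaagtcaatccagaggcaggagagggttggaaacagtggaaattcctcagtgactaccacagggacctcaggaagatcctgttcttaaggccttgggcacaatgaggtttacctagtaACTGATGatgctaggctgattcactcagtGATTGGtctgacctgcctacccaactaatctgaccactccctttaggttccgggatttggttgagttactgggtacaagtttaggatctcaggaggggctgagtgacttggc

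H2-DMb2 (chr17:34144999-34145298, + strand): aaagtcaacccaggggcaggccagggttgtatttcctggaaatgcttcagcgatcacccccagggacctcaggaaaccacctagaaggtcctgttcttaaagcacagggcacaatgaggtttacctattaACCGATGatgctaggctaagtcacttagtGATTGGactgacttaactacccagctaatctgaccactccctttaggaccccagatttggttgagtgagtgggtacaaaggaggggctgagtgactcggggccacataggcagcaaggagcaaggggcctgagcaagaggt

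H2-Oa (chr17:34092129-34092428, + strand): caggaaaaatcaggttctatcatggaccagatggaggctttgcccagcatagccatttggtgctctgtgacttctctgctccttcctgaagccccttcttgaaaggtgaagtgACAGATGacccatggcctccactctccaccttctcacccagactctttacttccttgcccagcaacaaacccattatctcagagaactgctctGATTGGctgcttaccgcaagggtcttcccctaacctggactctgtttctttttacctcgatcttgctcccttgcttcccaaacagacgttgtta

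The X match began 88, 91, 120 and 137 bases before the start in H2-Eb1, H2-DMb1, H2-DMb2 and H2-Oa, and the Y match on the same strand 60, 62, 91 and 44 bases before it. These X and Y matches lay farther apart in H2-Oa than in the other promoters shown. H2-Eb1 also held a Y core on the other strand. H2-Aa held a Y core 49 bases before its start, with an X core on the other strand 232 bases before it, far from the Y core. Of the 13 listed genes 10 had a promoter that was searched, 7 with a Y core, 6 with an X core and 5 with both. The promoters of H2-Ab1, Cd74 and Ciita were not searched, and entries on the chromosome of Cd74 had been left out beforehand. Over all 32851 promoters of the same length, 9.85% held the X core, 16.1% the Y core and 1.52% both. A stricter X form, the same core preceded by AG and 2 further bases, was searched first and found in 3 of these promoters, those of H2-Eb1, H2-DMb1 and H2-Oa, and in 0.968% of all promoters (0.149% with a Y core as well). The shorter core was chosen after those matches had been seen. No X and Y match overlapped in the searched promoters of the listed genes, the match is of letters only, and binding was not measured in these cells.

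**Figure D2:**
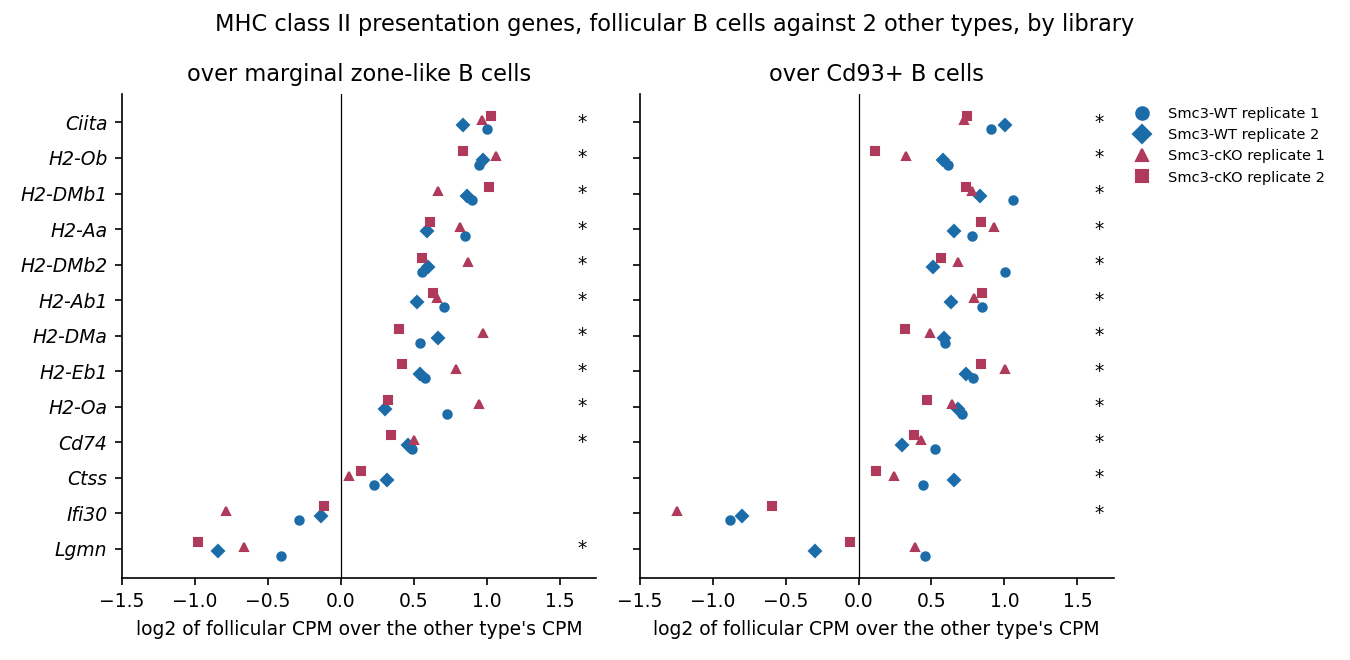
Log2 of the CPM in follicular cells over that in marginal zone-like (left) or Cd93+ (right) cells for the 13 MHC class II presentation genes, 1 point per library, Smc3-WT in blue and Smc3-cKO in red. Asterisks mark an edgeR adjusted p under 0.05. The points of the class II chains, Cd74, H2-DM, H2-O and Ciita lie right of 0 in every library, and those of Ifi30 lie left of it.

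Transcription factors moved in both directions, 9 of 29 tested higher and 5 lower (median log2 change 0.14). Zfp318, which is needed for IgD expression from the joint IgM and IgD transcript, was at 324 and 338 and 365 and 295 CPM in follicular and 134 and 142 and 132 and 98.5 CPM in marginal zone-like cells (edgeR, log2 change 1.40, SE 0.08, adjusted p = 1.14e-09). The follicular rule asked for Ighd UMIs and the marginal zone-like and Cd93+ rules did not, and the part of this in Zfp318 was not tested. Bcl6, the factor of germinal centre B cells, was at 150.4 and 155 and 132 and 162 CPM against 80.8 and 39.2 and 70.3 and 60.4 CPM (edgeR, log2 change 1.32, SE 0.14, adjusted p = 1.17e-06). Neither gene's values overlapped between the types. Bach2, a repressor of plasma cell differentiation, rose by 0.90 and Klf2, a factor of lymphocyte quiescence and trafficking, by 0.81 on the log2 scale. Mef2c (0.69), Id3 (0.69), Klf3 (0.66), Ets1 (0.54) and Bcl11a (0.34) were also higher. The plasma cell factors Prdm1 (log2 change -1.56) and Irf4 (-0.58) were lower, as were Id2 (-0.78), Tcf4 (-0.51) and Ikzf1 (-0.40). Prdm1 was near its detection floor, at 6.68, 2.23, 2.498 and 1.905 CPM in follicular cells.

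**Figure D3:**
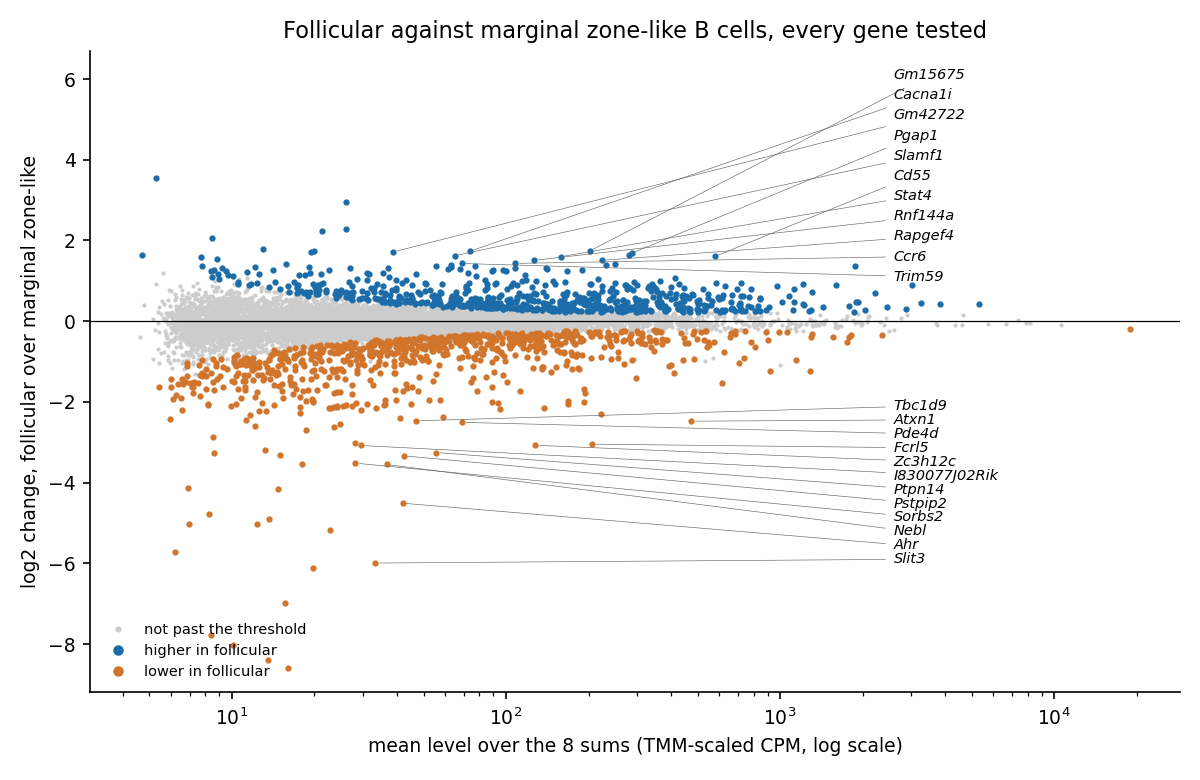
Log2 change of each of the 9360 genes tested, follicular over marginal zone-like cells, against its mean level over the 8 sums (log axis), with calls in blue (662, higher) and orange (809, lower). The labelled genes were chosen by size, from the 12 of largest fold in each direction at 50 CPM or more that moved the same way in all 4 libraries.

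By size alone, the 12 genes chosen as higher included Gm15675, Cacna1i, Gm42722, Pgap1, Slamf1, Cd55, Stat4, Rnf144a, Rapgef4, Ccr6 and Trim59, with log2 changes from 1.43 to 1.74. Slamf1, a receptor of the SLAM family, was at 89.4 and 97.5 and 96.8 and 102 CPM in follicular and 29.3 and 31.2 and 34.7 and 31.4 CPM in marginal zone-like cells (edgeR, log2 change 1.62, SE 0.12, adjusted p = 1.72e-08). Stat4, the signal transducer of interleukin-12, was at 255 and 209 and 287 and 192 CPM against 99.8 and 59.3 and 67.8 and 83.02 CPM (edgeR, log2 change 1.60, SE 0.12, adjusted p = 2.66e-08). The types were apart for both. The 12 named as lower, Slit3, Ahr, Nebl, Sorbs2, Pstpip2, Ptpn14, I830077J02Rik, Zc3h12c, Fcrl5, Pde4d, Atxn1 and Tbc1d9, had log2 changes from -5.99 to -2.47. Ahr, the aryl hydrocarbon receptor (chr12:35497979-35534989), was at 6.68 and 3.902 and 1.87 and 1.905 CPM in follicular and 62.5 and 91.02 and 44.4 and 118 CPM in marginal zone-like cells (edgeR, log2 change -4.51, SE 0.25, adjusted p = 7.04e-10). Fcrl5, an Fc receptor-like protein of marginal zone cells (chr3:87435777-87500678), was at 41.8 and 39.02 and 47.5 and 45.7 CPM against 269.99 and 391 and 271 and 523 CPM (edgeR, log2 change -3.05, SE 0.13, adjusted p = 6.55e-11). Both were lower in follicular cells by several fold in each library. The 24 genes chosen by size kept their direction and their call under every alternative in which they were tested.

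Marginal zone genes that the rule had not used were low in follicular cells: 14 of 17 tested were lower and 2 higher, with a median log2 change of -1.74. The tetraspanin Cd9 was at 16.7 and 7.25 and 17.5 and 11.4 CPM in follicular and 60.97 and 61.4 and 62.98 and 87.2 CPM in marginal zone-like cells (edgeR, log2 change -2.40, SE 0.20, adjusted p = 8.20e-08). Dtx1, a target of Notch2 signalling, was at 54.3 and 47.4 and 49.97 and 46.98 CPM against 211 and 210.1 and 208 and 257 CPM (edgeR, log2 change -2.16, SE 0.10, adjusted p = 8.79e-11). The lipid antigen presenter Cd1d1 fell by 2.13 and Plac8 by 1.53 on the log2 scale. Cr2, the complement receptor CD21 (chr1:195136811-195176880), differed less: it was at 614 and 825 and 565 and 983 CPM in follicular and 1230.4 and 1589 and 905 and 2271 CPM in marginal zone-like cells (edgeR, log2 change -0.96, SE 0.09, adjusted p = 2.07e-07). Follicular Cr2 in Smc3-cKO replicate 2 was above marginal zone-like Cr2 in Smc3-cKO replicate 1, so the types overlap across libraries and part only within them. Notch2 itself (0.40) and Rapgef4 were higher in follicular cells. This list is used to name marginal zone cells, so its direction is a check of the comparison.

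Of 6 tested complement genes 4 were higher and 2 lower: beside Cd55, its duplicate Cd55b (1.41), Cd46 (0.72) and Cr1l (0.26) rose, and Cfp, which encodes properdin (-1.58), and Cr2 fell. Cd55 and Cd55b are close copies, and their reads can be misassigned. Of 9 innate sensors 5 were lower and 0 higher (median log2 change -0.31). The RNA sensor Tlr7 was at 62.7 and 52.9 and 81.2 and 38.7 CPM in follicular and 119 and 106 and 143 and 103 CPM in marginal zone-like cells, with no overlap (edgeR, log2 change -1.02, SE 0.11, adjusted p = 2.98e-06). The accessory proteins Ly96 (-1.75), Cd180 (-0.53), Ly86 (-0.40) and Unc93b1 (-0.31) were the others.

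Antigen receptor signalling split, with 5 of 23 tested genes higher and 8 lower. Rasgrp3, an activator of Ras downstream of the receptor, was at 288 and 348 and 369.8 and 429 CPM in follicular and 117 and 145 and 120.3 and 153 CPM in marginal zone-like cells (edgeR, log2 change 1.42, SE 0.08, adjusted p = 1.14e-09). Bank1 (0.44) and the kinase Prkcb (0.47) rose as well. The Src-family kinase Blk was at 325 and 356 and 359.8 and 275 CPM against 628 and 624 and 677 and 592 CPM (edgeR, log2 change -0.94, SE 0.08, adjusted p = 6.65e-08). The 2 types were apart for both Rasgrp3 and Blk. Vav2 (-0.80), the adaptor Blnk (-0.46), the kinase Lyn (-0.38) and Ighm (-0.34) were lower. Among inhibitory receptors and phosphatases, 6 of 15 were lower and 2 higher (median -0.32). Lair1 (-1.69), Ptpn22 (-1.18), Cd72 (-0.46) and Siglecg (-0.37) were among the lower ones, and Cd22 (0.37) and Fcrl1 (0.33) were higher.

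Immediate early genes, which rise within minutes of stimulation or of tissue handling, split too: 8 of 16 tested were higher and 4 lower. The higher ones were Cd69 (1.01), Ier2 (0.72), Jund (0.67), Klf6 (0.61), Zfp36 (0.51), Nfkbia (0.47), Ier5 (0.45) and Cd83 (0.43). The lower ones were Egr1 (-1.18), Myc (-1.18), Nr4a1 (-1.01) and Dusp2 (-0.56). The follicular rule removed cells with Egr3 UMIs and the marginal zone-like rule did not, and the part of this in the lower 4 was not tested. Cd69 was detected in 6.90%, 4.92%, 7.87% and 5.13% of thinned follicular cells and 4.94%, 6.22%, 8.29% and 6.51% of T cells.

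Against Cd93+ B cells (652 cells: 121, 207, 144 and 180), which stand for the transitional stage, follicular cells showed the class II difference again with other partners. Of 8134 genes tested in the same way, 346 (4.25%) were higher and 432 (5.31%) lower, 9.56% in all. Without Smc3-WT replicate 2 the counts were 190 and 251, and without the library block 55 and 112. The Cd93+ rule did not remove cells with Klhl14, Akap12 or Agbl1 UMIs, as the follicular rule did, and the part of this in the differences was not tested. Both comparisons share the follicular sums.

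Transitional markers were lower in follicular cells, 7 of 7 tested, with a median log2 change of -1.37 against -0.01 over all genes. Myb, a factor of B cell precursors, was at 25.9 and 11.7 and 10.6 and 12.1 CPM in follicular and 54.7 and 38.7 and 53.6 and 65.5 CPM in Cd93+ cells (edgeR, log2 change -1.89, SE 0.23, adjusted p = 2.04e-06). Vpreb3, which binds the precursor receptor's chains, was at 45.9 and 197 and 80.6 and 147 CPM against 177 and 454 and 355 and 267 CPM (edgeR, log2 change -1.45, SE 0.14, adjusted p = 3.47e-08). Vpreb3 levels overlapped between the types across libraries, and within each library the follicular one was lower. Cd24a (-1.13), Sox4 (-1.37), Tifa (-1.41), Ly6d (-0.76) and Tmem108 (-0.50) were the others, on the log2 scale.

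MHC class II genes were higher than in Cd93+ cells in 11 of 13 cases and lower in 1, with a median log2 change of 0.61. In Cd93+ cells H2-Aa was at 698 and 1205 and then 772 and 1001 CPM, below the follicular value of the same library in all 4 (edgeR, log2 change 0.79, SE 0.06, adjusted p = 1.79e-09). H2-Eb1, whose promoter held both cores, rose by 0.83, H2-DMb1 by 0.83 and H2-Oa by 0.61. Ciita rose by 0.83 on the same log2 scale. Ifi30, a lysosomal thiol reductase, was at 101 and 139 and 86.2 and 119 CPM in follicular and 186 and 242 and 204 and 179 CPM in Cd93+ cells, and was the one that fell (edgeR, log2 change -0.88, SE 0.11, adjusted p = 2.92e-06). The list's counts were 11 and 1 without Smc3-WT replicate 1, and 3 and 1 without the library block.

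Ccr6 led the named genes here, at 19.7 and 40.2 and 40.5 and 55.9 CPM in Cd93+ cells, below every follicular value (edgeR, log2 change 1.97, SE 0.15, adjusted p = 3.62e-10). Icosl, the ligand of the T cell costimulator ICOS, was at 71.8 and 79.7 and 89.9 and 75.6 CPM in follicular and 19.7 and 23.8 and 28.95 and 33.6 CPM in Cd93+ cells (edgeR, log2 change 1.56, SE 0.17, adjusted p = 3.30e-07). Cd83, an activation marker, was at 192 and 211 and 277 and 199.997 CPM against 78.7 and 96.7 and 116 and 104 CPM (edgeR, log2 change 1.14, SE 0.11, adjusted p = 1.73e-08). All 3 were apart in the 2 types. The other genes named as higher were Gm47782, Stat4, Setbp1, St6galnac3, Pxdc1 and Pacsin1, with log2 changes from 1.28 to 1.94. Pxdc1 missed the threshold without the library block (adjusted p = 0.0584 by edgeR). The 8 chosen as lower included Reln, Cplx2, Slco5a1, Serinc5, Sox5 and Akap17b, with log2 changes from -5.34 to -2.50. Reln, the extracellular protein reelin (chr5:21884454-22344705), was at 2.51 and 1.67 and 2.498 and 1.27 CPM in follicular and 122 and 77.3 and 130.3 and 12.8 CPM in Cd93+ cells (edgeR, log2 change -5.34, SE 0.29, adjusted p = 1.29e-12).

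In antigen receptor terms, Ighm was at 2003 and 2251 and 1747 and 2179 CPM in follicular and 2880.1 and 3613 and 3192 and 3117 CPM in Cd93+ cells, with every follicular value the lower (edgeR, log2 change -0.66, SE 0.07, adjusted p = 4.91e-08). Cr2 was at 291 and 387 and 230.2 and 462 CPM in Cd93+ cells, so the follicular level stood between the Cd93+ and the marginal zone-like level in each library (edgeR against Cd93+, log2 change 1.13, SE 0.07, adjusted p = 2.00e-11). Cxcr5 (0.62), Gpr183 (1.07) and Itgb7 (0.73) were among 6 of 17 homing genes that rose, and S1pr1 (-0.41) was the 1 that fell. Of 15 survival genes tested 4 rose, the Bcl2 relative Bcl2a1b (0.89), Cd40 (0.48), Bcl2 (0.44) and Birc3 (0.24), and Mcl1 (-0.38) fell. Among 28 transcription factors 6 rose and 7 fell: Zfp318 (0.81), Bcl6 (0.38), Nfkb1 (0.37) and Rel (0.31) rose, while Tcf3 (-0.81), Spib (-0.72), Klf2 (-0.40) and Bach2 (-0.33) fell. Klf2 and Bach2 thus stood below Cd93+ and above marginal zone-like cells. Of 8 innate sensors edgeR called 0, with 2 at an unadjusted p under 0.05, and DESeq2 called 0 too. B1 markers were lower for 6 of 10, among them Cd5 (-1.38).

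**Figure D4:**
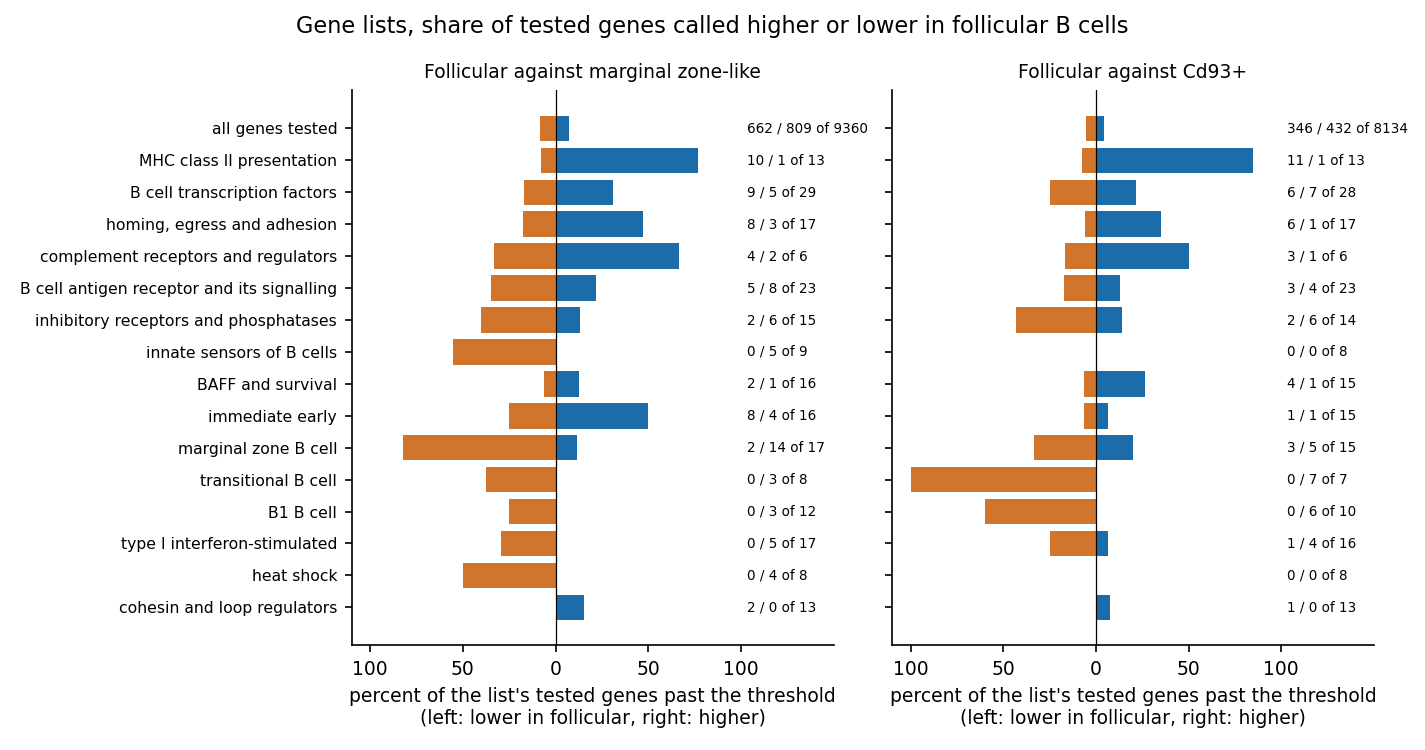
Percent of each list's tested genes called higher (blue, right) or lower (orange, left) in follicular cells against marginal zone-like (left panel) and Cd93+ (right panel) cells, with the counts at the side as higher / lower of tested. The top bar gives the same over all genes tested: 662 and 809 of 9360, and 346 and 432 of 8134.

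Between genotypes, follicular cells were first read for Smc3 itself. Smc3 was at 112 and 103 CPM in the Smc3-WT and 106 and 102 CPM in the Smc3-cKO libraries (edgeR, log2 change -0.10, SE 0.17, adjusted p = 0.99996). The library reads the 3′ end of a transcript, which can lie outside the deleted part, so the level neither supports nor contradicts the labels. Of 9332 genes tested, 2 libraries against 2, edgeR called 0 (0%) at an adjusted p under 0.05, while an unadjusted p under 0.05 was reached by 153 (1.64%) and DESeq2 made 4 calls. With the replicate number as a block, a setting described at the end, edgeR called 5 genes higher and 6 lower. In 2230 genes (23.9%) the libraries of the genotypes did not overlap. On simulated counts of the same depth, with the same dispersion for all genes, the test found 97% of 4-fold and 26% of 2-fold changes. Differences near 2-fold were thus mostly not detectable. In the data, without the replicate block, the test called none of Plcb4, Plcb1 and Chil3, at log2 changes of 4.47, 5.34 and 4.07. Without Smc3-WT replicate 2 it called 74 genes higher and 99 lower, and without Smc3-WT replicate 1 18 and 9.

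The gene lists show the same absence of calls, with 0 of 13 cohesin and loop regulators, 0 of 13 MHC class II, 0 of 28 transcription factor and 0 of 17 homing genes called by edgeR. At an unadjusted p under 0.05 none of these 4 lists had a gene, and DESeq2 called none of theirs. Markers of other cells differed between libraries in these sums, and Smc3-WT replicate 1 had the highest NK, T cell and erythroid sums. The genotypes did not overlap in 3 of 4 tested NK, 1 of 6 T cell, 0 of 5 erythroid and 5 of 12 myeloid markers, against 23.9% of all genes. All 4 tested NK markers (median log2 change -2.19, 3 at an unadjusted p under 0.05), all 6 T cell markers (-1.07, 1) and all 5 erythroid markers (-1.84, 0) had values below 0, and 3 of 12 myeloid markers had an unadjusted p under 0.05 (median 0.05). None of these was called by edgeR, and their part in other genes' differences was not tested. The median log2 changes of the first 4 lists were -0.04, -0.08, 0.06 and -0.03, against -0.01 over all genes. The cohesin list ranged from -0.17 to 0.11. The 16 tested interferon-stimulated genes had a median of 0.23, 14 of them above 0, and none was called by edgeR (1 at an unadjusted p under 0.05). Among them Ly6a was at 75.2 and 110.4 CPM in the Smc3-WT and 250.5 and 100.3 CPM in the Smc3-cKO libraries, so the high value was that of Smc3-cKO replicate 1 alone. Of 30 genes that an earlier analysis called in conventional dendritic cells of these libraries, 15 were tested here and 0 called by edgeR (3 at an unadjusted p under 0.05, which are Plcb1, Plcb4 and Adam23).

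Plcb4 and Plcb1, neighbouring genes that encode phospholipase C beta enzymes, had the smallest p-values. Plcb4 (chr2:135658603-136014602) was at 3.34 and 1.67 CPM in the Smc3-WT and 75.6 and 36.8 CPM in the Smc3-cKO follicular cells, from 4, 3, 121 and 58 UMIs. The genotypes did not overlap, and without the replicate block the difference did not pass (edgeR, log2 change 4.47, SE 0.55, adjusted p = 0.298). With that block the difference passed, as given at the end. DESeq2 called it, at a log2 change of 4.52. The UMIs were spread over cells: 4, 2, 62 and 39 follicular cells held one, which is 1.15%, 0.348%, 17.4% and 7.49%, and no cell held more than 9. Of the follicular cells, 1106 held at least 1 myeloid or dendritic UMI. Leaving out the 85 with 5 or more, an alternative chosen after seeing the data, left 1, 1, 101 and 47 UMIs (log2 change 5.91, SE 0.69, edgeR adjusted p = 0.150). Plcb4 was not confined to follicular cells: marginal zone-like cells had 6.33, 1.06, 74.3 and 33.96 CPM and Cd93+ cells 10.9, 5.95, 177 and 105 CPM, and 9.23%, 6.92%, 23.99% and 25.9% of T cells held a UMI. The difference in genotype effect between follicular and marginal zone-like cells did not pass for it (edgeR interaction, log2 difference 0.48, 95% interval -0.95 to 1.90, unadjusted p = 0.488). Over 10087 genes this interaction called 1 (0.00991%), Dlg2, and 2.6% had an unadjusted p under 0.05.

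Plcb1 (chr2:134786164-135475258) differed in how it was carried. It was at 0.835 and 0.557 and 40.6 and 22.2 CPM, from 1, 1, 65 and 35 UMIs (edgeR, log2 change 5.34, SE 0.65, adjusted p = 0.298). Those UMIs sat in 1, 1, 6 and 8 cells, with 27 and 10 in a single cell of the 2 Smc3-cKO libraries. Without the cells with 5 or more myeloid or dendritic UMIs, 1, 0, 0 and 4 UMIs of Plcb1 were left.

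Several other genes of small p had many of their UMIs in 1 cell of a library. Adam23 was at 53.5 and 11.7 CPM without and at 0 and 0 CPM with the conditional knockout. In the pooled UMIs it was at least 30.1-fold lower when 3 counts are allowed over the Smc3-cKO sum. This is no bound for most follicular cells, since 42 of its 64 and 20 of its 21 UMIs lay in 1 cell of each Smc3-WT library. Adgrl3, at 129 and 38.5 and 14.99 and 6.98 CPM, had 59 of its 69 UMIs in Smc3-WT replicate 2 in 1 cell. Chil3, a chitinase-like gene of myeloid cells at 2.51 and 1.67 and 52.5 and 20.3 CPM, had 49 of its 84 UMIs in Smc3-cKO replicate 1 in the cell with 1251 myeloid and dendritic UMIs, while its 32 UMIs in Smc3-cKO replicate 2 lay in 21 cells with at most 6 in one. DESeq2 called Chil3 (log2 change 4.12) and Adgrl3 (-2.94) as well as Plcb1 (5.50). Without the 85 cells, Adam23 had 6, 1, 0 and 0 UMIs, Adgrl3 3, 4, 3 and 1, and Chil3 3, 3, 4 and 16. Lyz2, the myeloid lysozyme, had a log2 change of 1.40 with those cells and -0.38 without them, and Gsr 1.38 and 0.06. Cacnb2 was at 32.6 and 7.803 and 0.625 and 1.27 CPM, and its log2 change was -4.28 with and -3.05 without them.

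Cd2, a lymphocyte adhesion receptor (chr3:101275908-101287939), showed a difference carried by many cells. It was at 135 and 134 CPM in the Smc3-WT and 80.6 and 71.7 CPM in the Smc3-cKO libraries, with UMIs in 33.9%, 28.7%, 28.1% and 17.7% of cells. The levels of the genotypes were apart, as in 23.9% of genes, and the difference did not pass (edgeR, log2 change -0.87, SE 0.18, adjusted p = 0.99996). Gm16158, a transcript with UMIs in 33, 37, 9 and 9 cells, was at 30.9 and 21.7 and 5.62 and 5.71 CPM and did not pass either (edgeR, log2 change -2.23, SE 0.39, adjusted p = 0.99996). Leaving out the 85 cells moved these 2 log2 changes to -0.81 and -2.10. After thinning, Gm16158 was detected in 4.02%, 3.16%, 0.843% and 0.986% of follicular cells and in 6.49%, 3.47%, 1.88% and 1.72% of T cells. Cd2 was detected in 18.4%, 16.9%, 11.5% and 9.07% of follicular cells and in 29.6%, 25.9%, 25.2% and 21.1% of T cells. T cells thus held both genes at higher shares in each library, and the part of free RNA was not tested. 5330438D12Rik was at 98.6 and 75.2 and 43.7 and 45.7 CPM (edgeR, log2 change -0.99, SE 0.22, adjusted p = 0.99996). Oasl2, an interferon-stimulated gene, was at 8.35 and 5.02 and 27.5 and 15.9 CPM (edgeR, log2 change 1.68, SE 0.47, adjusted p = 0.99996).

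**Figure D5:**
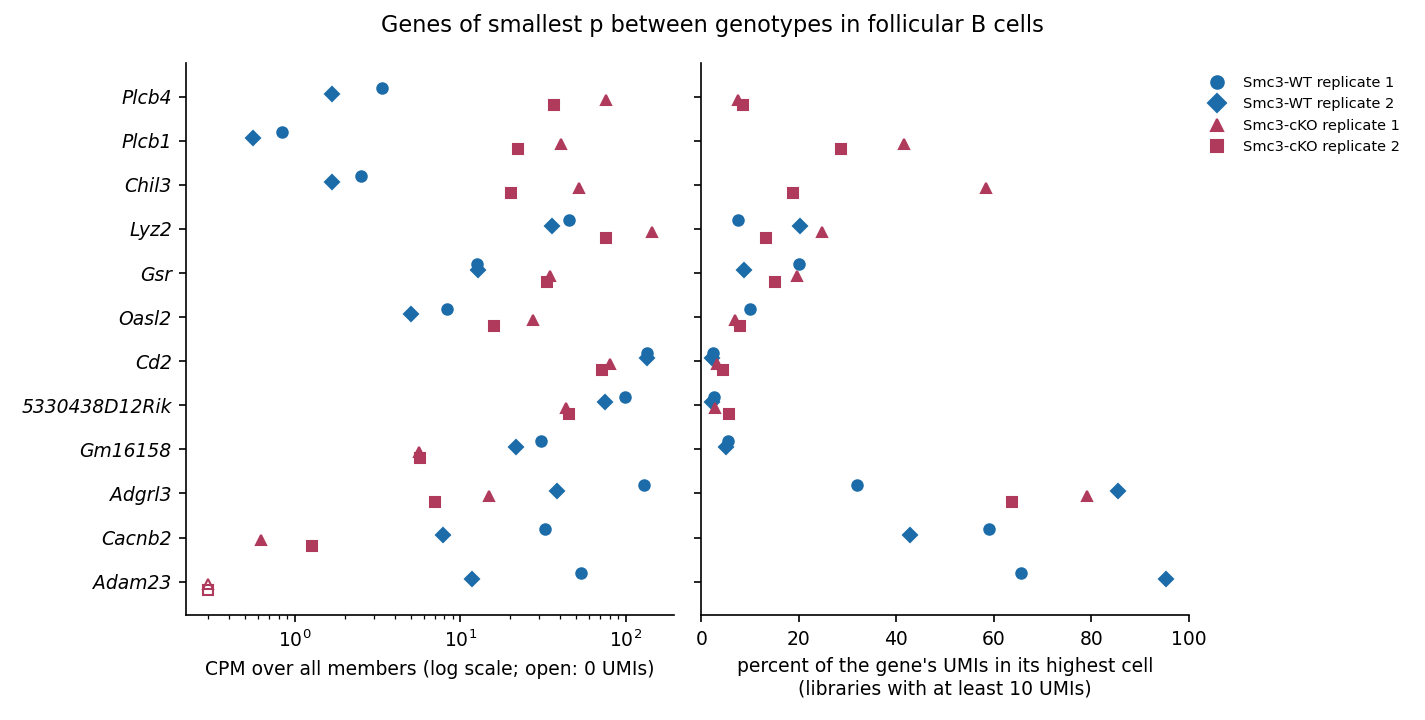
Left, level in follicular cells (CPM, log axis) of the 12 genes of smallest p between genotypes at 20 CPM or more, 6 in each direction, 1 point per library, Smc3-WT in blue and Smc3-cKO in red, open points for 0 UMIs. Right, the percent of the gene's UMIs that its highest cell holds, for libraries with at least 10 UMIs. Plcb4, Cd2 and 5330438D12Rik are spread over cells, while most Adam23 UMIs lie in 1 cell per Smc3-WT library.

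The share of B cells that met the follicular rule was 5.16% (95% exact Clopper-Pearson interval 4.64% to 5.71%), 6.88% (6.35% to 7.45%), 8.79% (7.94% to 9.71%) and 6.82% (6.26% to 7.41%). The Smc3-WT libraries averaged 6.02% ± 1.22 and the Smc3-cKO libraries 7.81% ± 1.40 (SD, n = 2 each), and the ranges overlapped. A two-sided exact permutation test gave p = 0.667, and 2 libraries against 2 cannot go below 0.333. The deepest library had the highest share, and after thinning all cells to 1500 UMIs the shares were 2.01%, 3.20%, 2.86% and 3.29%. These shares count cells in which the markers were caught and not all follicular cells, and the intervals cover counting error only.

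Light chain use, which the rule did not touch, was read from cells with more UMIs of the lambda constant genes (Iglc1, Iglc2 and Iglc3) than of Igkc. Lambda cells were 12.4% (9.12% to 16.3%), 20.1% (16.9% to 23.6%), 17.4% (13.6% to 21.8%) and 18.4% (15.2% to 22.0%) of the follicular cells. Smc3-WT replicate 1, the library with the most free Igkc, had the lowest share, and the part of free RNA in it was not tested. The genotypes averaged 16.2% ± 5.43 and 17.9% ± 0.714 (SD, n = 2 each; exact permutation test, two-sided, p = 1). Asking for at least 3 light chain UMIs with 80% of one kind gave 5.41%, 14.3%, 13.4% and 15.1%.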

How the data were processed

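The submitters deposited UMI counts per gene and cell barcode for 4 libraries of 32285 genes, made with Cell Ranger 7.0.0 per the file headers and with the mm10 build, deepTools and Juicer named in the submitters' processing notes without saying for which data. The lowest total per deposited barcode was 500 or 501 UMIs. The other 26 of the 30 samples in the series were not analysed here.

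Cells were chosen by the rule given in the text on the raw counts (Python 3.11.15, numpy 2.4.6, scipy 1.17.1, scanpy 1.11.5). Counts were summed per library and cell type and compared with edgeR 4.0.16 (glmQLFit, glmQLFTest, filterByExpr, TMM, Benjamini-Hochberg over all genes tested, threshold 0.05; R 4.3.3). DESeq2 1.42.0 was an alternative. Follicular cells were compared with marginal zone-like and Cd93+ cells with the library as a block, and between genotypes without one. CPM are UMIs per 1000000 UMIs of the library's cells of that type, unscaled, and log2 changes are TMM-scaled. Gene ends are not normalised for length, so levels are not compared between genes. Strand and the treatment of multi-mapped reads are not given in the sources used here.

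Cd93+ cells had the B cell genes and a Cd93 UMI, no Myof, S1pr3, Egr3 or Jchain UMI, and were not follicular. Marginal zone-like cells had no Jchain UMI, and both types met the limits on T and dividing cells. T cells had at least 3 UMIs of the Cd3 genes and none of Cd79a, Cd79b and Ms4a1, so T cells with free RNA of these genes were left out. Scrublet was run at an expected 0.8% per 1000 barcodes, which gives 12.9%, 11.5%, 7.26% and 11.3%, and it marked 0.859%, 6.21%, 3.61% and 6.37% of the kept cells. The doublets left were not measured.

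Genes were named by rule: between types, the 12 (marginal zone-like) or 8 (Cd93+) of largest fold in each direction past the threshold, at 50 CPM or more and alike in 4 libraries; between genotypes, where under 10 genes passed, the 6 of smallest p in each direction at 20 CPM or more; and members of the gene lists. Some genes that met the rule are not reported here. The selection of cells, the lists and the tests were chosen with earlier results of these data known. The test was run on simulated counts with known changes in genes above 20 CPM, with the same dispersion for all genes of a comparison. It found 100% of 2-fold changes against marginal zone-like cells, 96% against Cd93+ cells, 26% between genotypes and 43% of those between genotype effects. Gene positions and promoters are RefSeq's for GRCm38.p6.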

Additional observations from a re-analysis of the deposited data

Results flagged for a closer look

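Dlg2, a scaffold protein gene best known from synapses, was the only one of 10087 genes (0.00991%) whose genotype effect differed between follicular and marginal zone-like B cells by the edgeR interaction test, at a log2 difference of 4.09 (SE 0.46, adjusted p = 0.00779). Over all genes 262 (2.6%) had an unadjusted p under 0.05. Follicular cells held 13, 5, 70 and 22 Dlg2 UMIs and marginal zone-like cells 173, 23, 34 and 16. Of the 70 in Smc3-cKO replicate 1, 60 lay in 1 follicular cell that also held 50 myeloid and dendritic UMIs, and of the 173 in Smc3-WT replicate 1, 96 lay in 1 marginal zone-like cell with 93. With cells of 5 or more such UMIs left out, follicular Dlg2 came to 8, 1, 4 and 0 UMIs and no gene was called. Without Smc3-WT replicate 1 the Dlg2 difference was 2.92 (edgeR, adjusted p = 0.130).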

How the results depend on the processing

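The labels number the libraries 1 and 2 in each genotype without saying what a number shares. Deviations from the genotype mean correlated at 0.40 for like numbers (9337 genes), and with 2 pairs this is a hint only. In follicular cells both libraries numbered 1 had the higher erythroid sums and median mitochondrial percents (6.63% and 5.05%, against 3.18% and 3.79%). Levels in Smc3-WT replicate 2 correlated at 0.980 with Smc3-cKO replicate 2 and at 0.948 with Smc3-WT replicate 1. Smc3-cKO replicate 1 stood at 0.963 to 0.966 with each other library. What the numbers share was not tested. With the replicate block, edgeR called 5 genes higher and 6 lower between genotypes, against 0 and 0 without it. Among the named genes these were Plcb4 (adjusted p = 0.00167), Adgrl3 (0.00178), Plcb1 (0.00456), Adam23 (0.00529), Chil3 (0.00529) and Lyz2 (0.0379). DESeq2 called 3 and 1, no filter on low counts 20 and 36, and leaving out 1 library gave 0 to 74 higher and 0 to 99 lower, the most without Smc3-WT replicate 2. A library alone in its genotype is then assumed to vary like the others.

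Against marginal zone-like cells (662 higher, 809 lower), DESeq2 called 352 and 363, no library block 218 and 316, Smc3-WT libraries only 410 and 509, Smc3-cKO libraries only 390 and 511, mitochondrial UMIs at most 5% 351 and 394, and cells thinned to 1500 UMIs 401 and 464. Fcer2a and Ighd at 3 or more gave 519 lower and equal numbers of cells (217) 485 lower. Leaving out 1 library gave 373 to 683 higher and 478 to 708 lower. Against Cd93+ cells (346 and 432), the same settings gave 137 and 193, 55 and 112, 197 and 280, 169 and 233, 195 and 249, thinned 286 lower, and equal numbers (121) 224 and 221. Leaving out 1 library gave 190 to 331 higher and 251 to 372 lower. For genotype effects between types (1 and 0), no filter gave 19 and 5, leaving out 1 library 4 to 27 and 2 to 13, and 0 higher came with Fcer2a and Ighd at 3 or more, at 1 or more, with thinned cells and with myeloid-marked cells left out. That last setting and the one that kept Jchain cells were chosen after seeing the data. With fewer cells or libraries, fewer UMIs or error degrees of freedom enter by construction. What part this had in the moves was not tested, nor was the cause under the other settings.

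No called value of a gene named by rule changed sign. The signs of the other calls were not compared. Among values without a call, the lambda share difference of 1.69 points was -2.15 without Smc3-WT replicate 1, Lyz2 went from 1.40 to -0.38 and the Slc8a1 interaction from 1.66 to -0.40 with myeloid-marked cells left out, and the Fmnl2 interaction from 1.70 to -0.07 with Fcer2a and Ighd at 3 or more. The follicular share difference of 1.79 points was 0.471 with thinned cells. Each move in share was under the larger of the 2 genotypes' SDs (1.40 and 5.43). At this depth and number of libraries most 2-fold genotype changes would be missed.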

Other observations

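Heat shock genes parted follicular from marginal zone-like cells and not from Cd93+ cells: 4 of 8 tested were lower in the first comparison and 0 of 8 in the second by edgeR (0 at an unadjusted p under 0.05, 0 by DESeq2). The 4 were Hspd1 (log2 change -0.65), Hsp90ab1 (-0.58), Hspe1 (-0.57) and Hspa8 (-0.26). A difference between the 2 comparisons was not tested, and they share the follicular sums. Of 17 tested interferon-stimulated genes 5 were lower than in marginal zone-like cells, Isg15 most (-1.30), followed by Ly6a (-0.81), Rtp4 (-0.65), Trim30a (-0.40) and Ifi27l2a (-0.32). Against Cd93+ cells 4 of 16 were lower and 1 higher, with Zbp1 at -1.18 and Ly6a at 0.52. B1 markers Cd300lf (-2.63), Bhlhe41 (-1.58) and Bhlhe40 (-1.22) were 3 of 12 lower than in marginal zone-like cells, and 0 were higher.

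Ly6a was also uneven between libraries. After thinning to 1500 UMIs it was detected in 9.20%, 11.1%, 28.1% and 14.2% of follicular cells, and in 9.09%, 7.72%, 12.5% and 9.995% of T cells, and without thinning in 19.3%, 21.8%, 54.8% and 22.6% of follicular cells. Smc3-cKO replicate 1 was thus high, and Smc3-cKO replicate 2 lay near the Smc3-WT libraries.

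Single follicular cells differed most from each other in a few genes. For 4052 genes at 0.05 or more thinned UMIs per cell in every library, the ratio of variance to mean over cells was taken, and the median of each gene's lowest value over libraries was 1.01, near that of counting alone. The highest of these lowest values were those of Gm42418, which ran from 3.73 to 16.5 over the 4 libraries, Malat1, an abundant nuclear RNA, from 2.94 to 3.67, and Gm2682 from 2.86 to 5.86. Next, Kcnq5, a potassium channel gene, ran from 2.64 to 3.39, Hdac9, a class II histone deacetylase, from 2.62 to 3.50 and Fchsd2 from 2.57 to 2.88. Bach2 ran from 2.03 to 2.64, Cr2 from 1.94 to 2.60 and Cd83 from 1.88 to 2.20. These are descriptions of cells of 4 libraries, with no test.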
